A study of Mus musculus with 77 samples.

Results

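De novo lipogenesis is the making of fatty acids from carbohydrate carbon, and 10 genes of this pathway were followed through ribosome profiling and total RNA sequencing of mouse liver. The genes, chosen by name and not by their values, were Srebf1, Thrsp, Acly, Me1, Acaca, Acacb, Fasn, Elovl6, Scd1 and Pnpla3. They are 10 of the 25266 genes counted in the files, and 9 of them are among the 10696 genes that passed the filter on low counts. The exception is Pnpla3. Levels are reads over the coding sequence (CDS) of each gene, given as CPM, counts relative to the library total after scaling by the upper quartile.

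The study asked how the iron regulatory proteins IRP1, encoded by Aco1, and IRP2, encoded by Ireb2, shape gene expression over the day. Livers came from 24 adult male mice on a C57BL/6J background, 3 for each of 8 groups: Aco1+/+, Aco1-/- (allele Aco1tm1.1Mwh), Ireb2+/+ and Ireb2-/- (allele Ireb2tm1.2Mwh), each at ZT5 and ZT12. All mice had free access to food and at least 8 days in a cycle of 12 h light and 12 h dark, and ZT5 and ZT12 lie 5 and 12 h after lights on. Each liver gave 1 library of ribosome-protected fragments (RPFs), the pieces of mRNA shielded by translating ribosomes, and 1 library of total RNA. Both deletions are carried by the whole animal, so a difference between genotypes is not one of the liver alone, and each line had its own wild-type controls. In bulk liver, fewer cells of a type and less RNA per cell cannot be told apart.

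In lipogenesis, ATP citrate lyase (Acly) supplies cytosolic acetyl-CoA and malic enzyme (Me1) supplies NADPH. The acetyl-CoA carboxylases make malonyl-CoA, Acaca in the cytosol for synthesis and Acacb at the mitochondrion, where malonyl-CoA restrains fatty acid oxidation. Fatty acid synthase (Fasn) builds palmitate, Elovl6 elongates it and Scd1 introduces a double bond. Srebf1 encodes SREBP-1, a transcription factor that drives these genes in response to insulin, and Thrsp (Spot 14) is a small nuclear protein that responds to thyroid hormone and carbohydrate. Pnpla3 encodes a lipid droplet protein. In liver the pathway is high after feeding and low in fasting, so mRNA levels of these genes are widely read as a marker of the fed state, and mice eat mostly in the dark phase. Food intake of the individual mice was not used here.

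On the mouse genome GRCm38.p6, Srebf1 (ENSMUSG00000020538, chr11:60199084-60224186), Acaca (ENSMUSG00000020532, chr11:84129635-84401651), Acly (ENSMUSG00000020917, chr11:100476352-100528000) and Fasn (ENSMUSG00000025153, chr11:120805958-120825166) lie on chromosome 11. The others are Elovl6 (ENSMUSG00000041220, chr3:129532386-129638495), Acacb (ENSMUSG00000042010, chr5:114146321-114250761), Thrsp (ENSMUSG00000035686, chr7:97412933-97417550), Me1 (ENSMUSG00000032418, chr9:86581363-86695914), Pnpla3 (ENSMUSG00000041653, chr15:84167776-84189521) and Scd1 (ENSMUSG00000037071, chr19:44394450-44407709). RNA counts per library ran from 1534 to 8082 for Fasn, from 1172 to 14283 for Scd1, from 444 to 2370 for Srebf1 and from 152 to 2956 for Thrsp, and were lower for Me1 (107 to 665) and Acaca (97 to 446).

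The RNA libraries held 852293 to 3993492 CDS counts (median 2103622) and the RPF libraries 2448915 to 13439600 (median 6784598). Footprints on the deleted genes matched the labels, with Aco1 at 74.8 to 123 CPM in Aco1-/- livers and above that range, up to 591 CPM, in all Aco1+/+ livers, and Ireb2 at 32.5 to 41.2 CPM in Ireb2-/- and 62.3 to 81.4 CPM in Ireb2+/+ livers. The 5 hepatocyte markers summed to between 90246 and 147698 CPM in RNA. Of 6 adipocyte markers, which bear on lipogenesis because fat makes the same enzymes, 2 are in the files (Adipoq and Adrb3), with at most 5 and 7 counts in any library. One library stood apart: Ireb2+/+ replicate 3 at ZT5 held 7802 CPM of 4 pancreatic acinar transcripts, against a median of 12.0 CPM at ZT5 and at most 187 CPM at ZT12. Several results that rest on this liver are given with and without it and others only with it, and its part in them was not tested.

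Thrsp differed most between the timepoints. In Aco1+/+ livers its RNA was at 90.9, 205 and 106 CPM at ZT5 and at 822, 442 and 833 CPM at ZT12. In Aco1-/- livers it was at 97.9, 60.3 and 150 CPM at ZT5 and at 757, 853 and 583 CPM at ZT12, and in Ireb2+/+ livers at 172, 93.3 and 199 CPM and at 628, 415 and 926 CPM. In these 3 genotypes every ZT12 liver was above every ZT5 liver, as 12.4%, 8.5% and 8.78% of all genes tested were in Aco1+/+, Aco1-/- and Ireb2+/+. In Ireb2-/- livers the values were 333, 318 and 157 CPM at ZT5 and 721, 321 and 793 CPM at ZT12. Here the groups overlapped, since replicate 2 at ZT12 was below replicate 1 at ZT5.

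**Figure D1:**
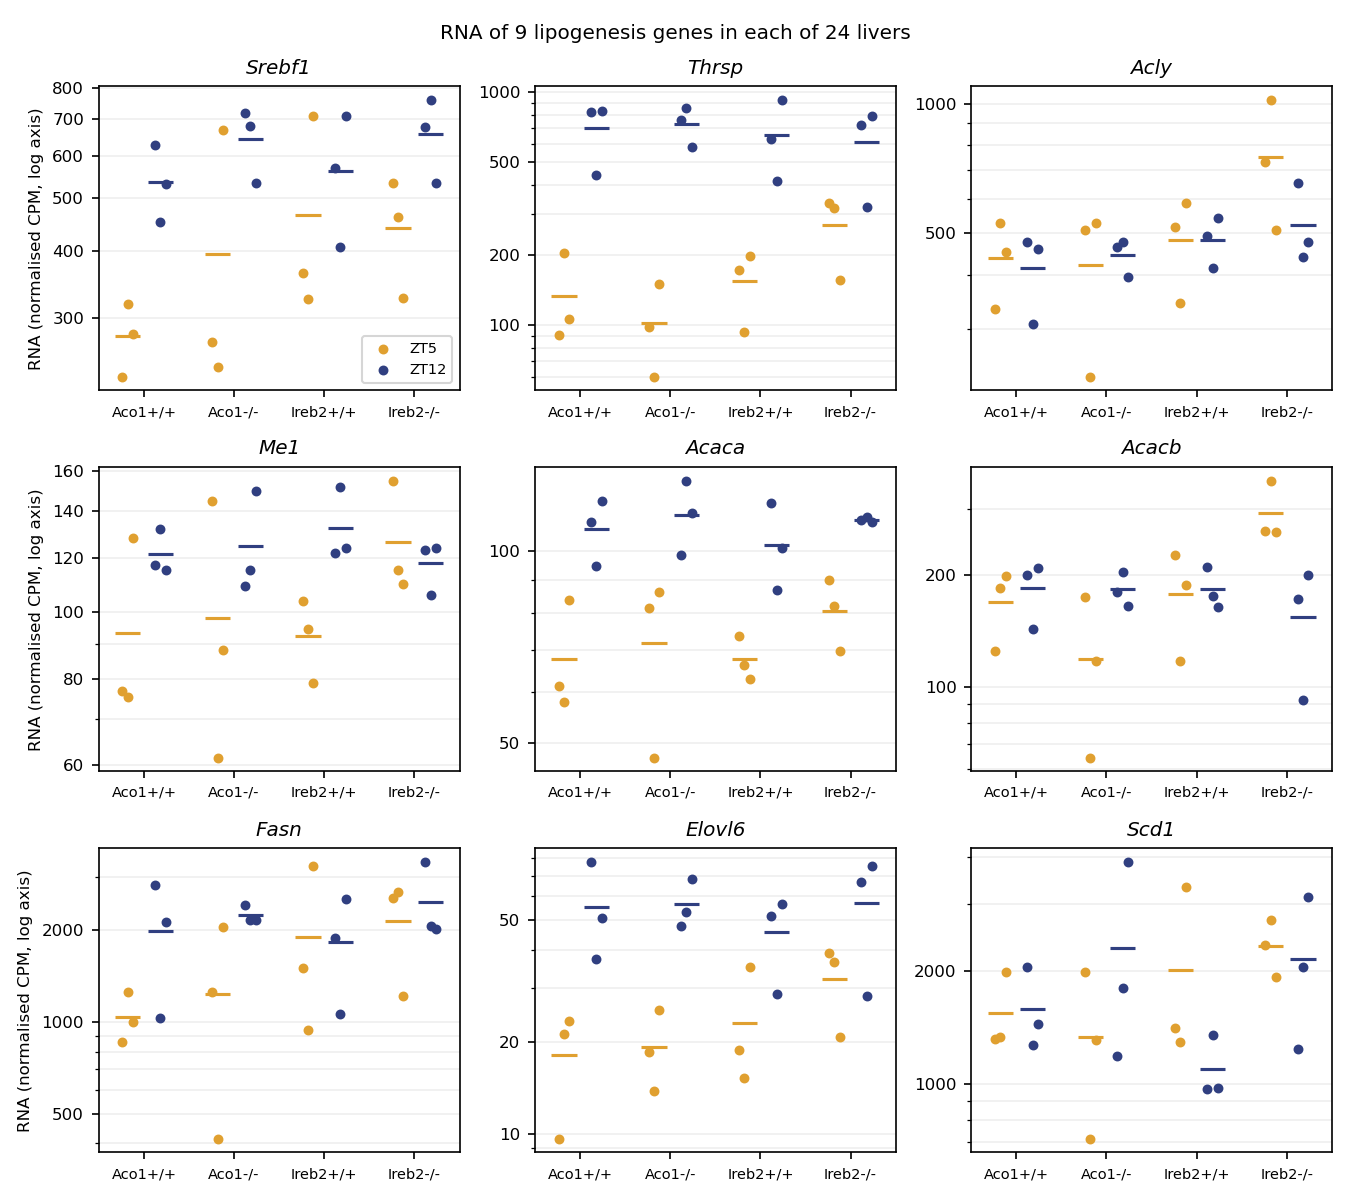
RNA of the 9 lipogenesis genes that passed the filter, in normalised CPM on a log axis, for each of 24 livers (points) and the mean of each group of 3 (lines), by genotype and timepoint. Thrsp ran from 60.3 to 926 CPM and was higher at ZT12 in all 4 genotypes by group mean, while Scd1 ran from 716 to 3890 CPM with no common direction.

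Thrsp footprints moved the same way and over a wider range, 22.3-fold from the lowest to the highest liver against 15.4-fold in RNA. In Aco1+/+ livers RPF were at 126, 344 and 147 CPM at ZT5 and at 1680, 858 and 1560 CPM at ZT12, and in Aco1-/- livers at 218, 75.5 and 242 CPM and at 1040, 1390 and 776 CPM. Ireb2+/+ livers had 238, 154 and 261 CPM at ZT5 and 962, 718 and 1420 CPM at ZT12, and Ireb2-/- livers 558, 477 and 248 CPM and 1340, 521 and 1410 CPM. The low ZT12 liver of Ireb2-/-, replicate 2, was thus low in both libraries.

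Srebf1 RNA was at 234, 319 and 281 CPM at ZT5 and 627, 453 and 532 CPM at ZT12 in Aco1+/+ livers, which do not overlap. Aco1-/- livers had 271, 244 and 669 CPM at ZT5 and 721, 680 and 534 CPM at ZT12, and Ireb2+/+ livers 364, 325 and 711 CPM and 569, 406 and 709 CPM. In both of these genotypes a single ZT5 liver, replicate 3, reached the level of ZT12, and in Ireb2+/+ it is the one with acinar transcripts. Ireb2-/- livers had 534, 461 and 327 CPM at ZT5 and 679, 761 and 535 CPM at ZT12. These do not overlap either, as held for 9.45% of all genes in that direction, but the closest livers stand at 534 and 535 CPM.

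Srebf1 footprints were at 188, 248 and 288 CPM at ZT5 and 726, 477 and 529 CPM at ZT12 in Aco1+/+, and at 262, 187 and 712 CPM and 878, 974 and 421 CPM in Aco1-/- livers. They were at 339, 304 and 627 CPM at ZT5 and 504, 348 and 546 CPM at ZT12 in Ireb2+/+, and at 509, 428 and 305 CPM and 601, 729 and 472 CPM in Ireb2-/- livers. In RPF the timepoints were thus apart in Aco1+/+, as 12.7% of all genes were in that direction, and overlapped in the other 3 genotypes.

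Elovl6 had the fewest CDS counts of the genes tested, with 22 to 251 per library in RNA, so its values carry the largest counting error. Over all genotypes its RNA ran from 9.66 to 39.0 CPM at ZT5 (median 21.1) and from 28.3 to 77.7 CPM at ZT12 (median 52.6). Acaca RNA ran from 47.4 to 90.1 CPM at ZT5 (median 71.7) and from 86.9 to 129 CPM at ZT12 (median 112). For Acaca a single ZT5 liver of Ireb2-/-, at 90.1 CPM, lay above the lowest ZT12 liver, at 86.9 CPM of Ireb2+/+, and within each genotype the timepoints did not overlap.

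Fasn varied widely within groups. Its RNA was at 861, 1260 and 998 CPM at ZT5 and 2810, 1030 and 2140 CPM at ZT12 in Aco1+/+, and at 1260, 415 and 2050 CPM and 2420, 2160 and 2170 CPM in Aco1-/-. Ireb2+/+ livers had 1510, 941 and 3260 CPM at ZT5 and 1890, 1060 and 2540 CPM at ZT12, and Ireb2-/- livers 2550, 2680 and 1220 CPM and 3360, 2070 and 2020 CPM. Only in Aco1-/- did the RNA of the timepoints not overlap.

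Srebf1, Thrsp and Fasn are shown here by short stretches of promoter sequence. Srebf1 and Thrsp differed between timepoints past the threshold used below, and Fasn did not. Fasn varied most closely with Srebf1 between livers, as described below. RefSeq promoters of GRCm38.p6, 250 bases before to 50 bases after a start, were found for 9 of the 10 genes, and 12 promoters in all. The NF-Y box CCAAT, a common promoter element that also works together with SREBP sites, was found on either strand in 8 promoters of 7 genes, against 37.4% of all 32851 promoters. The windows below, 5′ to 3′ on the strand of the gene, which is the minus strand for all 3, have the box in capitals (CCAAT, or ATTGG where it lies on the other strand).
Srebf1, chr11:60222735-60222755: gactgtctCCAATgcaagaca
Srebf1, chr11:60210489-60210509: ggctgctgATTGGccatgtgc
Thrsp, chr7:97417617-97417637: acgctgggATTGGctcaaaac
Thrsp, chr7:97417590-97417610: gtgttgctCCAATggttgggc
Fasn, chr11:120824625-120824645: gcgccgccATTGGgccaccga
Fasn, chr11:120824597-120824617: ctcggtgtCCAATtggtttcg

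The boxes of Thrsp begin 79 and 52 bases before the start, those of Fasn 90 and 62 bases before it, and those of Srebf1, in different promoters of the gene, 166 and 30 bases before it. In the second Fasn window the letters that follow also hold the box on the other strand, overlapping the first by 2 bases. Acaca and Elovl6 had no CCAAT in these windows. The E-box CACGTG, the sterol regulatory element TCACNCCAC, the D-box TTATGTAA and the direct repeat of AGGTCA with 4 bases between, each searched on both strands, were in 0 of the 12 promoters and in 7.15%, 1.24%, 0.938% and 0.0152% of all promoters. A match is a description of the letters and not of a bound site, and no match says only that these letters are not in these windows.

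For the remaining genes the timepoints overlapped when genotypes were pooled. Acly RNA had a median of 513 CPM at ZT5 (233 to 1020) and 472 CPM at ZT12 (309 to 654), and Me1 of 99.3 CPM (61.6 to 155) and 123 CPM (106 to 152). Acacb RNA had a median of 186 CPM at ZT5 (64.5 to 357) and 177 CPM at ZT12 (92.0 to 209), and Scd1 of 1665 CPM (716 to 3330) and 1395 CPM (970 to 3890). Within genotypes, Me1 was apart in Ireb2+/+, at 104, 94.5 and 79.0 CPM at ZT5 and 122, 152 and 124 CPM at ZT12. Acacb was apart in the other direction in Ireb2-/-, at 261, 357 and 260 CPM at ZT5 and 172, 92.0 and 199 CPM at ZT12. Groups were apart in that direction for 12.5% of all genes. Neither Me1 nor Acacb passed by edgeR's quasi-likelihood test (adjusted p = 0.0719 and 0.175), while DESeq2 called the fall of Acacb (−0.89, adjusted p = 0.0132). Pnpla3 had 0 to 5 RNA counts and 0 to 14 RPF counts per library, 49 and 113 in all, so its RNA (0 to 2.51 CPM) and footprints (0 to 2.34 CPM) allow no difference to be detected at this depth, and no test was made.

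When the 8 groups were ranked by mean RNA, neighbours in the order overlapped in their individual livers in 7 of 7 steps for every gene but Acacb, with 6 of 7. Srebf1 ran from 278 ± 42.3 CPM (SD, n = 3) in Aco1+/+ at ZT5 to 658 ± 114 CPM (SD, n = 3) in Ireb2-/- at ZT12. Acacb was highest in Ireb2-/- at ZT5, at 292 ± 55.7 CPM (SD, n = 3), and lowest in Aco1-/- at ZT5, at 118 ± 54.8 CPM (SD, n = 3). Scd1 was highest in Ireb2-/- at ZT5 (2330 ± 404 CPM, SD, n = 3) and lowest in Ireb2+/+ at ZT12 (1099 ± 219 CPM, SD, n = 3).

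Averaged over the 4 genotypes, with 12 livers at each timepoint, RNA of 4 of the 9 genes tested rose from ZT5 to ZT12 and none fell. For comparison, 9.71% of all genes tested rose and 22.3% changed in either direction by edgeR's quasi-likelihood test at an adjusted p of 0.05. Thrsp rose by 2.11 ± 0.24 on the log2 scale (SE; adjusted p = 4.66e-06), a 4.33-fold difference. Elovl6 rose by 1.25 ± 0.22 (SE; adjusted p = 4.75e-04), Srebf1 by 0.62 ± 0.18 (SE; adjusted p = 0.0201) and Acaca by 0.61 ± 0.09 (SE; adjusted p = 9.74e-07). Acaca thus had the smallest of these rises but the smallest error. Fasn, at 0.49 ± 0.27 (SE; adjusted p = 0.225), and Me1, at 0.30 ± 0.12 (SE; adjusted p = 0.0805), did not pass. Me1 RNA passed with DESeq2 (0.32, adjusted p = 0.0332), with all 5 columns summed (0.34, adjusted p = 0.0205) and without 1 liver in 3 cases, replicate 1 of Aco1-/- (0.39, adjusted p = 0.00207), replicate 3 of Aco1+/+ (0.37, adjusted p = 0.0142) or replicate 1 of Ireb2-/- (0.34, adjusted p = 0.0443), all at ZT5. Acly (−0.13), Scd1 (−0.04) and Acacb (−0.03) were close to 0 in log2 fold change. The median log2 fold change of the 9 genes was 0.49, that of all genes tested −0.04.

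Footprints gave the same 4 genes, against 13.6% of all genes that rose and 31.8% that changed. RPF log2 fold changes were 2.23 ± 0.26 for Thrsp (SE; adjusted p = 6.74e-06), 1.14 ± 0.23 for Elovl6 (SE; adjusted p = 0.00110), 0.73 ± 0.22 for Srebf1 (SE; adjusted p = 0.0179) and 0.65 ± 0.13 for Acaca (SE; adjusted p = 7.71e-04). Fasn footprints differed by 0.66 ± 0.29 (SE; adjusted p = 0.0940). Fasn passed when replicate 3 of Aco1-/- at ZT5 was left out (0.89, adjusted p = 0.0149) and with DESeq2 (0.68, adjusted p = 0.0435). Me1 footprints, at 0.32 ± 0.15 (SE; adjusted p = 0.101), passed with DESeq2 (0.35, adjusted p = 0.0344) and at ZT5 without replicate 1 of Aco1-/- (0.43, adjusted p = 0.0132) or replicate 3 of Aco1+/+ (0.40, adjusted p = 0.0316). Exact two-sided permutation of the livers within genotypes gave an unadjusted p = 1.25e-05 for Acaca RNA, the smallest value the 160000 arrangements allow. In RNA it gave 2.5e-05 for Thrsp, 8.75e-05 for Elovl6, 0.00158 for Srebf1, 0.0254 for Me1 and 0.0542 for Fasn. In RPF it gave 8.75e-05 for Acaca, 2.5e-05 for Thrsp, 2.00e-04 for Elovl6, 0.00348 for Srebf1, 0.0208 for Fasn and 0.0650 for Me1. Without the liver with acinar transcripts, the counts stayed at 4 in RNA and 4 in RPF, and Srebf1 RNA rose by 0.73 (adjusted p = 0.00497).

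**Figure D2:**
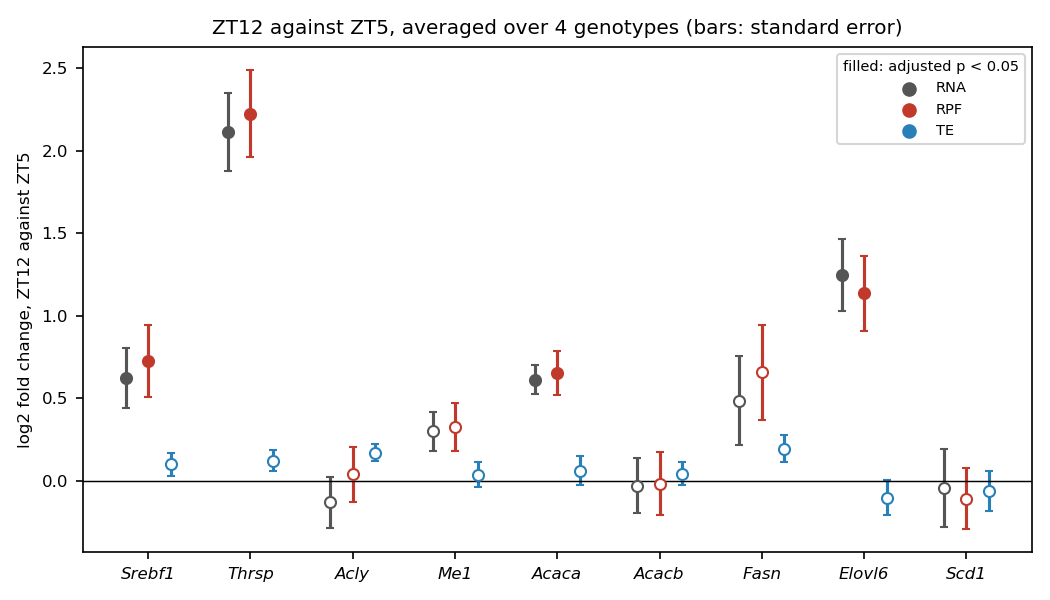
Log2 fold change from ZT5 to ZT12, averaged over 4 genotypes, with its SE (bars), for RNA, RPF and TE of each gene. Filled points, with an adjusted p under 0.05, are those of RNA and RPF of Srebf1, Thrsp, Acaca and Elovl6, and TE lies between −0.10 and 0.19.

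Within single genotypes fewer genes passed. In RNA these were Thrsp (2.36), Elovl6 (1.59) and Acaca (0.70) in Aco1+/+, against 7.05% of all genes. The same 3 passed in Aco1-/- (2.84, 1.60 and 0.70), against 5.15%. Srebf1 did not pass in Aco1+/+ by edgeR's quasi-likelihood test (adjusted p = 0.193). It passed there with only the 6 mice compared (0.95, adjusted p = 8.40e-06) and without Aco1-/- replicate 3 at ZT5 (0.95, adjusted p = 3.78e-05). In Ireb2+/+ Acaca alone passed by edgeR's quasi-likelihood test (0.58, adjusted p = 0.0286), against 2.29% of all genes. Thrsp did not pass by it (2.08 ± 0.50 SE, adjusted p = 0.0863) but did with DESeq2 (2.11, adjusted p = 8.27e-04). In Ireb2-/- 0 genes passed with edgeR's quasi-likelihood test, against 2.77%, with 3 at an unadjusted p under 0.05. Thrsp stood at 1.19 ± 0.49 there (SE; adjusted p = 0.307). DESeq2 called 1 gene in Ireb2-/-, Acacb, which fell (−0.89, adjusted p = 0.0132). Without the Ireb2+/+ liver with acinar transcripts, Acaca no longer passed in Ireb2+/+ (0.52, adjusted p = 0.0536) and passed in Ireb2-/- (0.48, adjusted p = 0.0229).

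In RPF, Thrsp passed in Aco1+/+ (2.73, against 6.64% of all genes) and in Ireb2+/+ (2.25, against 7.53%). In Aco1-/- it passed together with Acaca (2.58 and 1.00, against 12.1%). The Acaca call was lost under 11 of 20 alternatives, and that of Thrsp under 5 in Aco1+/+, 2 in Aco1-/- and 5 in Ireb2+/+. Srebf1 did not pass in Aco1+/+ by edgeR's quasi-likelihood test (adjusted p = 0.201). It passed there with only the 6 mice compared (1.26, adjusted p = 9.43e-04). Ireb2-/- livers had 0 genes past the threshold in RPF by edgeR's quasi-likelihood test, against 5.73%, with 3 at an unadjusted p under 0.05. DESeq2 called 2 there, a rise of Thrsp (1.38, adjusted p = 0.0401) and a fall of Acacb (−1.04, adjusted p = 0.00548). Without the liver with acinar transcripts, Thrsp footprints in Ireb2+/+ stood at 2.40 (adjusted p = 0.0647) and Acaca passed in its place (0.68, adjusted p = 0.0136). A call in one genotype and not in another is no test of a difference between them. The test of the difference itself, genotype by time within a line, passed for 0 of the 9 genes in RNA, RPF and TE of either line by edgeR's quasi-likelihood test, for 0 in RNA and RPF by DESeq2 and for 0 in TE by limma. Of all genes 0.028% passed in TE of the Aco1 line and 0.0% elsewhere. At an unadjusted p under 0.05 there were 2 members in RNA and 1 in RPF of the Ireb2 line, 1 in TE of the Aco1 line and 0 elsewhere, and the largest of these, Me1 footprints in the Ireb2 line, stood at −0.99 ± 0.35 on the log2 scale (SE; adjusted p = 1.00).

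The 2 lines were compared directly, a comparison added after the values were seen. ZT12 minus ZT5 was larger in the Aco1 line than in the Ireb2 line for all 9 genes in RNA, with log2 differences from 0.16 (Acaca) to 0.97 ± 0.46 (Thrsp, SE; adjusted p = 0.576), and for all 9 in RPF, from 0.42 (Acaca) to 1.10 ± 0.38 (Acacb, SE; adjusted p = 0.123). None passed by edgeR's quasi-likelihood test in RNA, RPF or TE, where 0.00935%, 3.19% and 0.0841% of all genes did, and 1, 1 and 5 members had an unadjusted p under 0.05. DESeq2 called 0 members in RNA and 1 in RPF. Without the Ireb2+/+ liver with acinar transcripts, the RNA differences ran from 0.18 (Acly) to 0.86 (Thrsp). Without replicate 3 of Aco1+/+ at ZT5, Acacb passed in RPF (1.30, adjusted p = 0.0448), and without replicate 3 of Aco1-/- at ZT12, Srebf1 passed in TE (0.51, adjusted p = 0.00592). Acacb footprints differed without overlap in both knockouts, higher at ZT12 in Aco1-/- and lower in Ireb2-/-, as 27.2% and 23.6% of all genes did in either direction. The 9 genes were measured in the same livers, so their shared sign is not 9 separate observations.

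Translation efficiency (TE), the ratio of RPF to RNA in the same liver, did not pass for any of the 9 genes in the average over genotypes. Of all genes tested, 0.486% passed in this comparison, and limma on TE per mouse also called 0 of the 9. Acly (0.17 ± 0.05 SE, adjusted p = 0.145) and Fasn (0.19 ± 0.08 SE, adjusted p = 0.443) were the 2 members with an unadjusted p under 0.05, both higher at ZT12. Acly passed without replicate 3 of Aco1+/+ at ZT5 (0.20, adjusted p = 0.0459). In Aco1+/+ livers the log2 TE of Acly was 0.31, 0.15 and 0.56 at ZT5 and 0.70, 0.73 and 0.74 at ZT12, which do not overlap, as held for 15.7% of all genes, but the difference of 0.39 ± 0.13 did not pass (SE; adjusted p = 0.378). The members called within a single genotype were 0 in TE in all 4 genotypes by edgeR and by limma, with 3, 3, 0 and 1 at an unadjusted p under 0.05 in Aco1+/+, Aco1-/-, Ireb2+/+ and Ireb2-/-, and 0.0187%, 0.15%, 0.533% and 0.00935% of all genes called. Srebf1 passed in Aco1-/- without replicate 3 at ZT12 (0.51, adjusted p = 0.0363).

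Across all 24 livers, Scd1 had the highest TE of the 9 genes. Its log2 TE averaged 1.62 ± 0.29 (SD, n = 24), at percentile 98.9 of the 6506 genes with a mean of at least 10 CPM, whose median was 0.12. Thrsp (0.68), Elovl6 (0.65), Acly (0.56), Fasn (0.45) and Me1 (0.37) were above that median in log2 TE, and Acaca (−0.06), Srebf1 (−0.09) and Acacb (−0.16) below it. Both libraries count CDS reads of the same gene, so CDS length is shared by the ratio. RNA and RPF levels of a gene rose and fell together over the livers, with r from 0.81 (Acaca) to 0.99 (Thrsp) on log2 values, against a median of 0.42 for the 6506 genes. That median includes genes that hardly vary, and the figures are given as a description.

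Knockout and wild-type livers did not differ past the threshold for any of the 9 genes. The count was 0 in RNA, RPF and TE, at both timepoints and in both lines, by edgeR's quasi-likelihood test, and 0 in RNA and RPF by DESeq2 and in TE by limma. Few other genes passed either, 0.0%, 0.00935%, 0.00935% and 0.0187% of all genes in RNA and 0.00935%, 0.299%, 0.0654% and 0.028% in RPF, for Aco1 at ZT5 and ZT12 and Ireb2 at ZT5 and ZT12. In TE the shares were 0.00935%, 0.0935%, 0.00935% and 0.0%. At an unadjusted p under 0.05 there were 0 members in RNA or RPF in the Aco1 line at either timepoint, 3 in RNA and 2 in RPF in the Ireb2 line at ZT5, and 0 and 1 at ZT12, while TE had 2 in the Aco1 line at ZT12 and 0 elsewhere. The 95% intervals are wide and leave room for large differences, for Thrsp RNA from −1.42 to 0.60 in Aco1 at ZT5 and for Fasn RNA from −1.06 to 1.40 in Ireb2 at ZT5 on the log2 scale. The latter is centred on 0.17, which became 0.80 ± 0.50 (SE; adjusted p = 1.00) without the liver with acinar transcripts. At ZT5 Acaca RNA had the narrowest intervals, from −0.30 to 0.48 in Aco1 and from −0.06 to 0.54 in Ireb2.

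**Figure D3:**
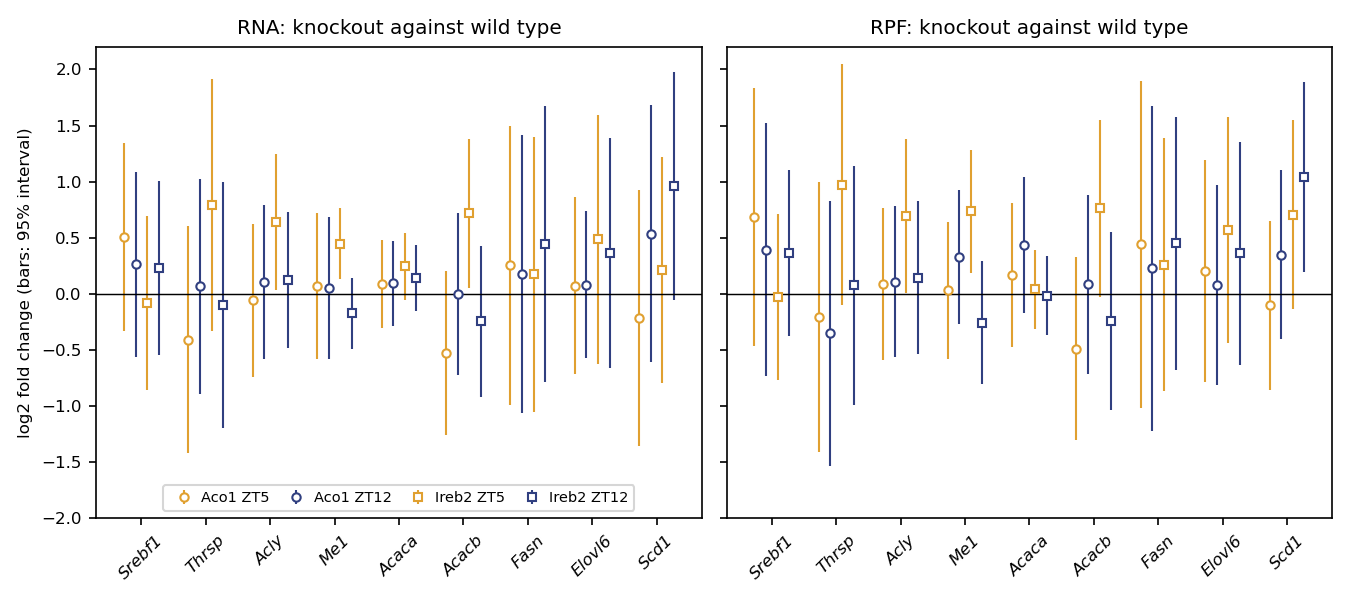
Log2 fold change of knockout against wild type with its 95% interval (bars) for RNA (left) and RPF (right) of each gene, by line and timepoint. None of the 9 genes had an adjusted p under 0.05, and the Ireb2 values at ZT5 lie above 0 for 8 of 9 genes in RNA and 8 of 9 in RPF.

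In the Ireb2 line at ZT5, 8 of 9 genes were higher in the knockout in RNA by the fitted value, with a median of 0.45 against 0.01 for all genes, and 8 of 9 in RPF, with a median of 0.69 against 0.03. Me1 RNA was at 155, 115 and 110 CPM in Ireb2-/- and at 104, 94.5 and 79.0 CPM in Ireb2+/+ livers at ZT5. Acacb RNA was at 261, 357 and 260 CPM in Ireb2-/- and at 226, 117 and 187 CPM in Ireb2+/+ livers at ZT5. For both genes every knockout liver was above every wild-type liver, in RNA and in RPF, as it was for Scd1 in RPF, and 6.89% of all genes were higher without overlap in RNA and 9.71% in RPF. The log2 fold change of Me1 was 0.45 ± 0.15 in RNA (SE; adjusted p = 0.826) and 0.73 ± 0.25 in RPF (SE; adjusted p = 0.557), and that of Acacb 0.72 ± 0.30 (SE; adjusted p = 0.837) and 0.76 ± 0.35 (SE; adjusted p = 0.655). The liver with acinar transcripts is among these controls, and without it 9 of 9 genes were higher in the knockout, by log2 fold changes from 0.19 (Acaca) to 0.98 (Thrsp) in RNA and from 0.25 (Acaca) to 1.13 (Thrsp) in RPF, with 0 past the threshold by edgeR's quasi-likelihood test. In RNA Srebf1 moved from −0.08 to 0.35, Fasn from 0.17 to 0.80, Scd1 from 0.21 to 0.78 and Me1 from 0.45 to 0.34 (adjusted p = 1.00 for each without that liver).

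At ZT12 the Ireb2 line differed most in Scd1, with 1240, 2050 and 3140 CPM in RNA of Ireb2-/- and 970, 1350 and 975 CPM of Ireb2+/+ livers. Its RPF were at 3200, 6000 and 9650 CPM and at 2950, 3820 and 2380 CPM, so that the groups overlapped in both measures. The log2 fold change in RPF was 1.04 ± 0.37 (SE; adjusted p = 0.580). In the Aco1 line at ZT12, TE of Thrsp was lower in the knockout, with log2 values of 0.46, 0.71 and 0.41 against 1.03, 0.96 and 0.91. The difference of −0.44 ± 0.14 did not pass (SE; adjusted p = 0.403), although the groups do not overlap, as held for 11.1% of all genes.

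The livers of one group differed widely in these genes. Within groups the SD of log2 RNA was 0.69 for Fasn, at percentile 98.8 of the 6506 genes, 0.58 for both Thrsp and Scd1, 0.56 for Elovl6 and 0.44 for Srebf1, against a median of 0.25 for the 6506 genes. Acacb had 0.43, Acly 0.39 and Me1 0.32, and only Acaca, at 0.24, was close to the median, at percentile 48.8. The SD of log2 TE within groups ran from 0.11 (Acly) to 0.32 (Elovl6), against a median of 0.27, and was below that of RNA for each gene but Acaca (0.25 in TE and 0.24 in RNA).

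Replicate 2 of Aco1-/- at ZT5 had the lowest RNA of all 24 livers in 7 of the 9 genes (Thrsp, Acly, Me1, Acaca, Acacb, Fasn and Scd1) and the lowest of its group in 9 of 9. Its mean z-score over the 9 genes, each scaled over the 24 livers, was −2.20. Replicate 1 of Aco1+/+ at ZT5, with the lowest Srebf1 and Elovl6, followed at −1.35, and at the other end replicate 2 of Ireb2-/- at ZT5 stood at 0.77, with the highest Acly and Acacb. The low Aco1-/- liver had the deepest RNA library of all, with 3993492 CDS counts. Of 12 genes that rise in fasting (a list described below), 10 were above their median over the livers in this one. In the next lowest livers, replicate 1 of Aco1+/+ and replicate 2 of Ireb2+/+ at ZT5, 5 and 4 were. All 12 were above it in replicate 3 of Aco1-/- at ZT12, a liver with 7 of 9 lipogenesis genes above their median. Without the low liver, the averaged rise from ZT5 to ZT12 was 2.04 for Thrsp, 0.56 for Srebf1 (adjusted p = 0.0331) and 0.38 for Fasn RNA (adjusted p = 0.299).

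Because livers of a group differed, the RNA of Srebf1 was set against that of each other gene as deviations from the group means over the 24 livers, in relations chosen after the values were seen. Of 8 relations, 3 passed in Pearson's r after Benjamini-Hochberg adjustment, with 100000 permutations within groups. Fasn had r = 0.84 (adjusted permutation p = 0.00280) and Spearman's rho = 0.79 (adjusted permutation p = 0.00368). Thrsp had r = 0.64 (adjusted permutation p = 0.0270) and rho = 0.64 (adjusted permutation p = 0.0368), and Elovl6 r = 0.57 (adjusted permutation p = 0.0272) and rho = 0.53 (adjusted permutation p = 0.0518). The unadjusted permutation p for r were 3.50e-04, 0.00676 and 0.0102, and for rho 4.60e-04, 0.00921 and 0.0207. Without the 2 livers farthest from the median in Srebf1 (replicate 3 at ZT5 of both Aco1-/- and Ireb2+/+), r was 0.77 for Fasn, 0.60 for Thrsp and 0.48 for Elovl6. Within the lines, r for Fasn was 0.78 in Aco1 and 0.90 in Ireb2, for Thrsp 0.78 and 0.52, and for Elovl6 0.58 and 0.57.

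Acly, with r = 0.66 and rho = 0.59, was at the threshold (adjusted permutation p = 0.0513 and 0.0518, unadjusted 0.0257 and 0.0259), with r = 0.62 without the 2 livers and 0.68 and 0.63 within the lines. Acaca (r = 0.39, adjusted permutation p = 0.474), Acacb (r = 0.17, adjusted permutation p = 0.708), Scd1 (r = 0.16, adjusted permutation p = 0.708) and Me1 (r = −0.17, adjusted permutation p = 0.708) did not pass, with rho of 0.30, 0.06, 0.23 and −0.19. Srebf1 thus varied with Fasn far more closely than with Me1 or Scd1 in these livers, and the difference between the relations was not tested.

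**Figure D4:**
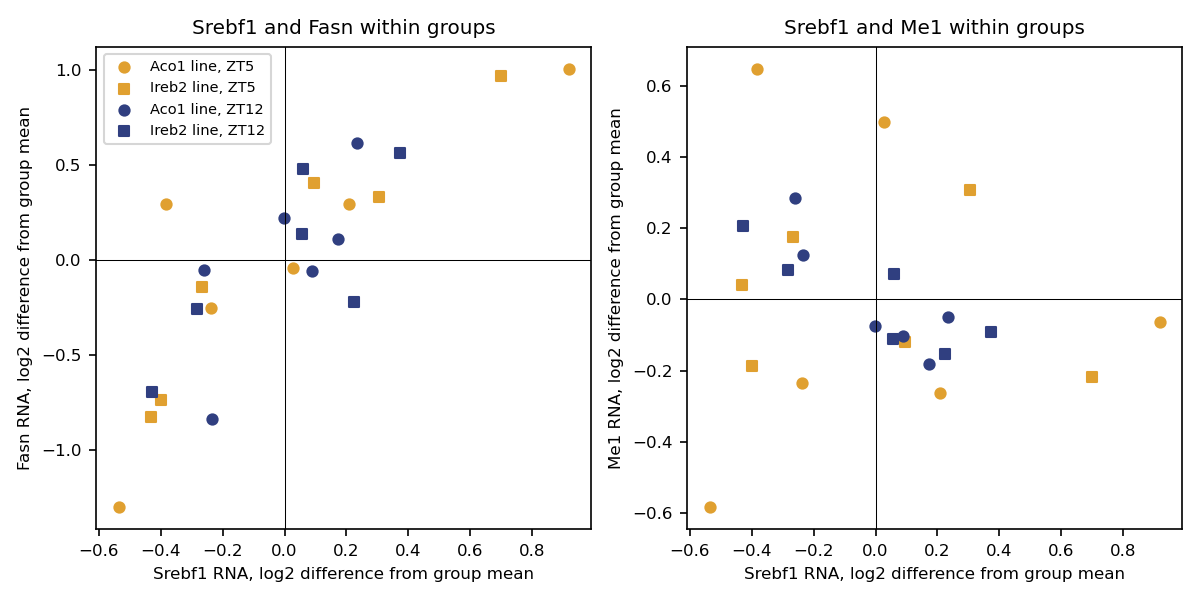
RNA of Fasn (left) and Me1 (right) against RNA of Srebf1, each as the log2 difference of a liver from the mean of its group, for 24 livers by line and timepoint. Fasn follows Srebf1 with r = 0.84, and Me1 has r = −0.17.

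Among 6436 other genes with a mean of at least 10 CPM, RNA of Gpi1 (r = 0.83), Pklr (0.82), Tkfc (0.77) and Tkt (0.77) was among the most like the mean z-score of the 9 lipogenesis genes over the 24 livers. Pklr is liver pyruvate kinase, Gpi1 acts in glycolysis, Tkt in the pentose phosphate pathway and Tkfc in fructose breakdown. These are descriptions over livers that share their group means, and within groups r was 0.66, 0.75, 0.74 and 0.53. Least like it were Fam210a (r = −0.74), Mbl1 (r = −0.72) and H6pd (r = −0.71). Of the 9 genes themselves, Fasn had the highest r with the mean z-score (0.90), which contains it, and Scd1 the lowest (0.53).

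A list of 27 further genes of lipogenesis and its control was read in the same average over genotypes. In RNA 7 rose and 6 fell of 27 tested, with a median log2 fold change of −0.07, and in RPF 7 rose and 9 fell. Of all genes tested 9.71% rose and 12.5% fell in RNA, and 13.6% rose and 18.2% fell in RPF. Lpin1, the phosphatidate phosphatase of triglyceride synthesis, rose by 2.99 ± 0.28 on the log2 scale (SE; adjusted p = 6.21e-07), more than any of the 9 genes. Insig2, which holds SREBP precursors in the endoplasmic reticulum, fell by 1.70 ± 0.13 on the log2 scale (SE; adjusted p = 1.96e-10), from a median of 93.6 CPM (53.1 to 150 over 12 livers) to 30.8 CPM (19.3 to 49.0), so that the timepoints did not overlap. Aacs (1.06, adjusted p = 0.00453), an activator of acetoacetate for lipid synthesis, the desaturase Fads2 (0.95, adjusted p = 1.61e-05) and Pklr (0.74, adjusted p = 0.00816) also rose. Between genotypes 0 of the 27 passed in any comparison of RNA, RPF or TE by edgeR's quasi-likelihood test.

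A list of 13 genes that rise in fasting liver, 12 of them tested and Fgf21 below the filter, moved in both directions. In RNA 3 were higher at ZT12, Pck1 of gluconeogenesis (0.87, adjusted p = 0.00163), the tyrosine aminotransferase Tat (0.64, adjusted p = 0.0222) and Cpt1a of fatty acid oxidation (0.55, adjusted p = 1.88e-05). Lower at ZT12 were Pdk4, which restrains pyruvate oxidation (−1.16, adjusted p = 0.00122), and the insulin receptor substrate Irs2 (−0.97, adjusted p = 0.0107). The same 5 passed in RPF with the same signs, and 0 of the 12 passed between genotypes in RNA, RPF or TE. Cyp4a14, a target of PPARα named here after its values were seen, ran from 7.61 to 686 CPM over the livers at ZT5 and from 13.7 to 600 CPM at ZT12 (0.41 ± 0.55 SE, adjusted p = 0.660).

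Each gene has further columns of counts besides the CDS, unnamed in the files and read from their values as 5′ UTR and 3′ UTR. Scd1 and Elovl6 differed from the other genes in both. In RNA 86.5% of the counts of Scd1 and 83.6% of those of Elovl6 were in the column read as 3′ UTR. Their RNA level rests on the 10.6% and 12.1% of counts in the CDS, against a median of 51.2% over 9105 genes. In RPF 17.7% of the counts of Scd1 (166285 of 941094) and 18.6% of those of Elovl6 (1990 of 10696) were in the column read as 5′ UTR. The median over 9041 genes was 1.99%, the 95th percentile 21.4%, and the other 7 genes had between 0.0751% (Thrsp) and 1.51% (Acaca).

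For Scd1 this share was 7.80%, 9.70% and 10.8% in the 3 Aco1-/- livers at ZT12 and between 11.0% and 25.7% in the other 21 livers. The mean was 9.44 ± 1.53% (SD, n = 3) in Aco1-/- and 18.9 ± 1.94% (SD, n = 3) in Aco1+/+ livers at ZT12, without overlap. It was 21.7 ± 3.07% (SD, n = 3) in Aco1-/- and 21.2 ± 4.75% (SD, n = 3) in Aco1+/+ livers at ZT5. The exact two-sided permutation p was 0.1 for the first comparison and for Aco1-/- between timepoints, the smallest that 3 against 3 livers can give, and it was 1.0 between genotypes at ZT5. The share of all other genes together in this column was 1.71 ± 0.26% in Aco1-/- and 2.11 ± 0.28% in Aco1+/+ at ZT12 (SD, n = 3), which overlap, and 2.54 ± 0.45% in Aco1-/- at ZT5 (SD, n = 3), which does not overlap with ZT12. In the Ireb2 line the 4 groups lay between 14.8 ± 3.45% and 19.6 ± 3.16% (SD, n = 3), with exact permutation p between 0.2 and 0.8 in 4 comparisons. These comparisons were added after the values were seen, and the part of the library-wide share in them was not tested.

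**Figure D5:**
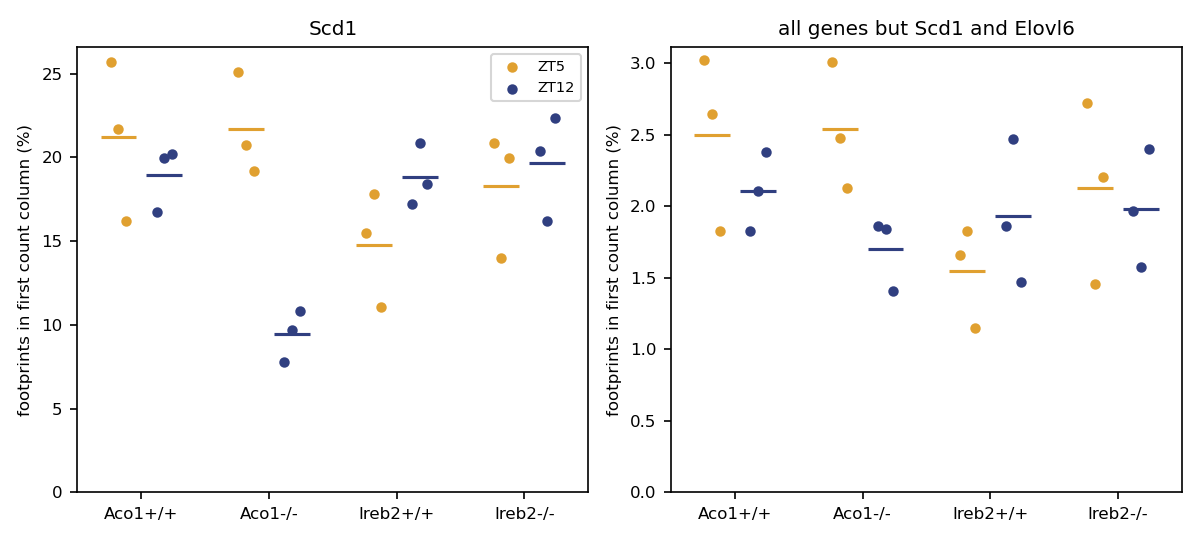
Share of RPF counts, in percent, in the first count column, read as 5′ UTR, for Scd1 (left) and for all genes but Scd1 and Elovl6 together (right), in each of 24 livers (points) with group means (lines), by genotype and timepoint. The 3 Aco1-/- livers at ZT12 are the lowest of all for Scd1, from 7.80% to 10.8%.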

How the data were processed

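Read counts of 48 libraries (77 sequencing runs, 24 livers) were used. The authors removed adapters (cutadapt 3.5), filtered by quality and by length, discarded rRNA and tRNA reads (Bowtie2), mapped the rest with STAR (2.70f) to the mouse genome (GRCm38, Ensembl release 100), and deposited raw counts, not normalised, as 5 unnamed columns for each run. The counter and its strand setting are not given in the sources used here, so overlapping and antisense genes cannot be separated. Judged by their values, the first 3 columns hold 5′ UTR, CDS and 3′ UTR, the fourth is 0 throughout and the fifth was not identified. The fifth holds no counts of Me1, Elovl6 and Scd1.

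The runs of a library were added up, and the analysis rests on the CDS column. Genes were kept by filterByExpr (minimum count 10, minimum total 15), scaled by the upper quartile and tested with edgeR's quasi-likelihood test (robust), with Benjamini-Hochberg adjustment over all 10696 genes. For TE both libraries of a mouse entered 1 model with a term for the mouse. Time was averaged over 4 genotypes, and compared between lines, in a fit of all 24 mice, and other comparisons were fitted within a line (12 mice). SE was derived from the F statistic, as |log2 fold change| over its square root. Levels are CPM, and log2 values used a prior count of 0.5. Levels were not compared between genes, because CDS lengths were not at hand. For single values a two-sided exact permutation test was made.

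The members and lists were chosen with earlier results of these data known. The text names all 10 members, of each list up to 6 genes with the largest change among those past the threshold in the averaged RNA comparison, and the 5 genes most like and the 3 least like the mean z-score. Of the genes this rule selects, 2 are not reported here. Mice of one number were taken as paired only where every pair's deviations correlated above 0.1, which held for Aco1-/- against Aco1+/+ at ZT5 (0.138 to 0.342 in RNA, 0.122 to 0.519 in RPF). Per the labels, each library came from an individual mouse. They do not say whether equal replicate numbers pair mice.

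The tests were checked on simulated counts. Alternatives were TMM, DESeq2 with its own size factors, other filters, the first sequencing run alone, all columns summed, only the 6 mice compared, the replicate block, each mouse left out, libraries not paired by mouse and limma on TE. Fits were run with edgeR (4.0.16), and alternatives with DESeq2 (1.42.0) and limma (3.58.1), under R (4.3.3). Permutations used SciPy (1.17.1) and NumPy (2.4.6), tables pandas (2.3.3) and plots Matplotlib (3.10.9), under Python (3.11.15).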

Additional observations from a re-analysis of the deposited data

Results flagged for a closer look

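Footprints outside the CDS were seen for 2 of the genes, in a column of counts that the comparisons do not use. Elovl6 had 18.6% and Scd1 17.7% of its RPF counts in the column read as 5′ UTR, against a median of 1.99% over all genes. There are no control samples for this share, and both lie below the 95th percentile of all genes, 21.4%.

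Acacb footprints moved in opposite directions in the 2 knockouts. From ZT5 to ZT12 they changed by 0.82 on the log2 scale in Aco1-/- livers (from 139, 49.9 and 116 CPM to 157, 200 and 185 CPM, every liver higher) and by −1.07 in Ireb2-/- livers (from 250, 350 and 234 CPM to 142, 84.4 and 170 CPM, every liver lower). Of all genes, 27.2% in Aco1-/- and 23.6% in Ireb2-/- had groups that do not overlap. Neither passed by edgeR's quasi-likelihood test (adjusted p = 0.174 and 0.128), while DESeq2 called the fall in Ireb2-/- (−1.04, adjusted p = 0.00548). Without replicate 2 of Aco1-/- at ZT5, the liver lowest in most of these genes, the change in Aco1-/- was 0.50 (adjusted p = 0.296). The difference between these 2 knockouts was not tested by itself, and that between the lines, with genotypes averaged, was 1.10 ± 0.38 (SE; adjusted p = 0.123), called by DESeq2 (1.11, adjusted p = 0.0473).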

How the results depend on the processing

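In the average over genotypes Thrsp, Elovl6, Srebf1 and Acaca passed in RNA and in RPF under all 31 alternatives tried for each. Further members passed under some: Me1 in RNA under 5 (lowest adjusted p = 0.00207) and in RPF under 3 (lowest adjusted p = 0.0132), Fasn in RPF under 2 (lowest adjusted p = 0.0149) and Acly in TE under 1 (adjusted p = 0.0459). At the same time no member passed between knockout and wild type under any. Within single genotypes, where groups hold 3 livers, the number of members called from ZT5 to ZT12 moved, and the cause was not tested. With the first sequencing run alone it was 1 in RNA of Aco1+/+ (from 3), 1 in RNA of Aco1-/- (from 3), 1 in RNA of Ireb2-/- (from 0) and 1 in RPF of Aco1-/- (from 2). With all 5 columns summed, Acaca was lost in RNA of Aco1+/+ (0.54, adjusted p = 0.108). It was also lost in RNA of Ireb2+/+ (0.50, adjusted p = 0.0792), where Me1 was gained (0.67, adjusted p = 0.0135). The number called was then 1 in RNA of Aco1-/- and 2 in RPF of Aco1+/+ (from 1). With only the 6 mice compared it was 0 in RNA of Ireb2+/+ (from 1), 1 in RNA of Ireb2-/-, 4 in RPF of Aco1+/+ and 1 in RPF of Aco1-/-. DESeq2 gave 2 in RNA of Ireb2+/+, 1 in RNA of Ireb2-/-, 2 in RPF of Aco1+/+, 4 in RPF of Aco1-/-, 2 in RPF of Ireb2-/- (from 0) and 1 between lines in RPF (from 0). Without the filter it was 1 in RPF of Aco1-/-, and with the stricter filter Elovl6 was called there as well (1.41, adjusted p = 0.0447).

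With single livers left out, RNA calls ran from 1 to 4 in Aco1+/+ (1 without replicate 1 at ZT5 or at ZT12), from 1 to 4 in Aco1-/- (1 without its replicate 3 at ZT12), from 0 to 1 in Ireb2+/+ (0 without replicate 1 or 3 at ZT12, or 2 or 3 at ZT5) and from 0 to 1 in Ireb2-/- (1 without Ireb2+/+ replicate 3 at ZT5). RPF calls ran from 0 to 3 in Aco1+/+ (0 without its replicate 1 or 3 at either timepoint, 2 without Aco1-/- replicate 2 and 3 without Aco1-/- replicate 3 at ZT5). They ran from 1 to 3 in Aco1-/- (1 without any of its ZT12 livers, its replicate 2 at ZT5 or Aco1+/+ replicate 2 at ZT5), from 0 to 2 in Ireb2+/+ (0 without replicate 1 or 3 at ZT12, or 1 or 2 at ZT5, and 2 without replicate 2 at ZT12) and from 0 to 1 between lines (1 without Aco1+/+ replicate 3 at ZT5). TE calls ran from 0 to 1 in Aco1-/-, in the average and between lines, with 1 without Aco1-/- replicate 3 at ZT12 (Aco1-/-, and between lines) or Aco1+/+ replicate 3 at ZT5 (the average).

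With the replicate block, RNA calls in Aco1+/+ were 2 and RPF calls in Aco1-/- were 1. Thrsp was the gene lost (adjusted p = 0.0514 in RNA of Aco1+/+ and 0.0529 in RPF of Aco1-/-), and in RPF of Aco1+/+ (adjusted p = 0.0668) Acaca (adjusted p = 0.0128) took its place. Of 72 pairs of same-numbered mice in these and the other comparisons, 18 had deviations correlated above 0.1 (−0.293 to 0.519). Where every same-numbered pair correlated above 0.1 in RNA and RPF, between genotypes of the Aco1 line at ZT5, the block also gave 0 members. Depth over the CDS limits Pnpla3 most, with at most 5 RNA counts per library, and then Elovl6, with 22 in one library.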
